A study of Canis lupus familiaris with 3 samples.

Results

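TMSB4X, TMSB4Y, CALD1, MSN and ABLIM1, which encode proteins of the actin cytoskeleton and are 5 of the 6043 genes named on the array, were described clone by clone. They are the genes whose symbol is the only one annotated to a spot, and they took 16 of 27648 spots, laid down from 6 clones at 8 locations of 2 adjacent spots each. The genes were chosen by their ratios of E47 cells to control cells on these same arrays, so their values are a description and carry no test. Of the 16 spots, 11 had a value on all 3 arrays, 3 on some arrays and 2 on none. A gene's mean was taken over its spots with a value on all 3 arrays, which leaves TMSB4X, TMSB4Y, MSN and ABLIM1 with 2 spots each and CALD1 with 3.

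The cells were MDCK, an epithelial line from dog kidney. MDCK-E47 transfectants, which carry the helix-loop-helix transcription factor E47 encoded by TCF3, were compared with MDCK-CMV control cells, and both were grown in the same serum-containing medium. RNA was amplified and hybridised to spotted human cDNA clones, with E47 cells in 1 dye and control cells in the other on each of 3 arrays. A single array held E47 RNA of extraction 1 in Cy5; the other arrays held extraction 2 in both dye orientations, with E47 in Cy3 and in Cy5. The labels do not say whether the transfectants are 1 clone or a pool, or whether the extractions came from separate cultures, so the spread between them may be technical.

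Every value below is a log2 ratio of E47 over control. The direction is likely rather than stated: each sample lists E47 cells as the first channel, and CDH1, which encodes E-cadherin and which the series title calls a target of E47 repression, had −3.52, −3.83 and −3.47 on the 3 arrays. If the deposited ratios ran the other way, each higher would read lower. No source states the log base, which was read as 2. Ratios give no level of a gene, so whether the cells carry epithelial markers could not be checked. Of 9 epithelial markers listed 6 were tested. All 6 passed as lower in E47 cells in limma (adjusted p under 0.05), against 3.85% of all named genes. CDH1, among these 6, is also the gene used to read the direction. Over all spots the arrays had SDs of 0.623, 0.430 and 0.535 and correlated with each other at r of 0.580 to 0.765, and their number limits the precision. The Cy5 arrays of the 2 extractions had the highest r, 0.765, above the 0.654 of the dye swap of extraction 2. Extraction 1 had no dye swap, so an SD between extractions mixes dye with extraction.

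Actin exists as single subunits and as filaments, and the balance between them shapes the cell edge, the cell cortex and contractile bundles. Thymosin beta-4, the product of TMSB4X, is a small peptide that holds actin subunits apart from filaments, and TMSB4Y is its Y-linked paralog in humans. Caldesmon, from CALD1, binds actin filaments, tropomyosin and myosin and restrains contraction. Moesin, from MSN, is a member of the ezrin, radixin and moesin (ERM) family that ties filaments to the plasma membrane. ABLIM1 encodes a LIM-domain protein that binds actin filaments.

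The thymosin clones were far higher in E47 cells on every array. The measured TMSB4X clone (BM716581) gave 2.89 and 2.79 at its adjacent spots for extraction 1. For extraction 2 the spots gave 3.03 and 3.05 with E47 in Cy3, and 2.85 and 2.89 with E47 in Cy5. The spot values therefore lay close together whatever the extraction or dye, and the mean was 2.90 ± 0.08 (SD, n = 2 extractions, the dye swap averaged first), which is 7.45-fold. It would be 18.1-fold if the logarithm were natural. A further TMSB4X clone (AA634103) had no value at either spot on any array, so the gene rests on 1 clone at 1 location.

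The TMSB4Y clone (N50556) was also higher throughout, but less so. It gave 1.96 and 1.97 for extraction 1, 2.45 and 2.46 for extraction 2 with E47 in Cy3, and 2.20 and 2.15 with E47 in Cy5. Its mean was 2.14 ± 0.25 (SD, n = 2), or 4.41-fold. Each array placed TMSB4X above TMSB4Y, by 0.87, 0.59 and 0.70, and no array value of one overlapped those of the other. These 2 clones cannot be read as 2 genes. The dog gene table holds TMSB4X and the related TMSB10 but not TMSB4Y. Whether that table covers the Y chromosome was not checked, so the absence of TMSB4Y from it decides nothing. Human thymosin cDNA can bind the transcripts of close paralogs. No clone with a single annotated gene was named TMSB10, and spots annotated with several genes were not searched for it. The TMSB15A clone had no value on any array. The share of each thymosin transcript in these ratios was thus not tested.

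Caldesmon was higher in E47 cells at both places where its clone (AA447737) was laid down, with sizes that differed by location. At the first location the spots gave 2.79 and 2.82 for extraction 1, 1.97 and 2.10 for extraction 2 in Cy3, and 2.40 and 2.64 in Cy5. At the second they gave 1.97 and 1.68 for extraction 1 and 1.16 and 1.36 for extraction 2 in Cy3, and a single measured spot gave 1.20 in Cy5. The first location was above the second on all 3 arrays, by 0.98, 0.77 and 1.32. Among clones annotated at exactly 2 locations the median difference was 0.17, 0.12 and 0.15 on the 3 arrays, over 863, 843 and 843 clones, and CALD1 differed by more than 94.1%, 97.7% and 97.6% of them. Among those at least 2-fold changed on the array, 22 of 70, 4 of 37 and 6 of 45 clones, CALD1 included, differed by as much.

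Over its 3 complete spots CALD1 had a mean of 2.19 ± 0.34 (SD, n = 2), or 4.55-fold. The spread between locations was larger than this SD, which leaves it out. With each location given equal weight, a choice made after the values were seen, the mean was 2.01. Among the 5 genes CALD1 and TMSB4Y lay next to each other in the order of means. Their array values overlapped, so these arrays do not order them. Caldesmon is abundant in smooth muscle. The smooth muscle markers ACTA2, MYH11, SMTN and DES lay between −0.16 and −0.06, and none of these 4 passed the limma test, also at an unadjusted p under 0.05. Their part in the CALD1 ratio was not tested.

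Moesin was higher by a smaller amount, and most so in extraction 1. Its clone (R22977) gave 1.50 at both spots of the first location for extraction 1, 0.96 and 1.08 for extraction 2 in Cy3, and 0.96 and 0.97 in Cy5. The dye swap thus gave the same size in both dyes, with extraction 1 above both. The second location, empty on the Cy3 array and so left out of the mean, gave 0.87 and 0.91 for extraction 1 and 0.77 and 0.75 for extraction 2 in Cy5. All 10 measured values of MSN were above 0, and those of the second location lay below every value of the first. The mean at the first location was 1.25 ± 0.36 (SD, n = 2), or 2.37-fold, and it was 1.07 with the second location kept.

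ABLIM1 was the member lower in E47 cells. Its clone (AA406601) gave −2.41 and −2.42 for extraction 1, −1.87 and −1.82 for extraction 2 in Cy3, and −2.48 and −2.47 in Cy5. Adjacent spots differed by less than 0.1 on each array, and the Cy3 array stood apart from both Cy5 arrays. The mean was −2.29 ± 0.18 (SD, n = 2), which is 4.89-fold lower. ABLIM1 was at ranks 18, 16 and 9 from the lowest of the 5508 named genes on the 3 arrays. TMSB4X was at ranks 7, 3 and 4 from the highest, TMSB4Y at 26, 6 and 13, CALD1 at 15, 21 and 17, and MSN at 56, 143 and 142.

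**Figure D1:**
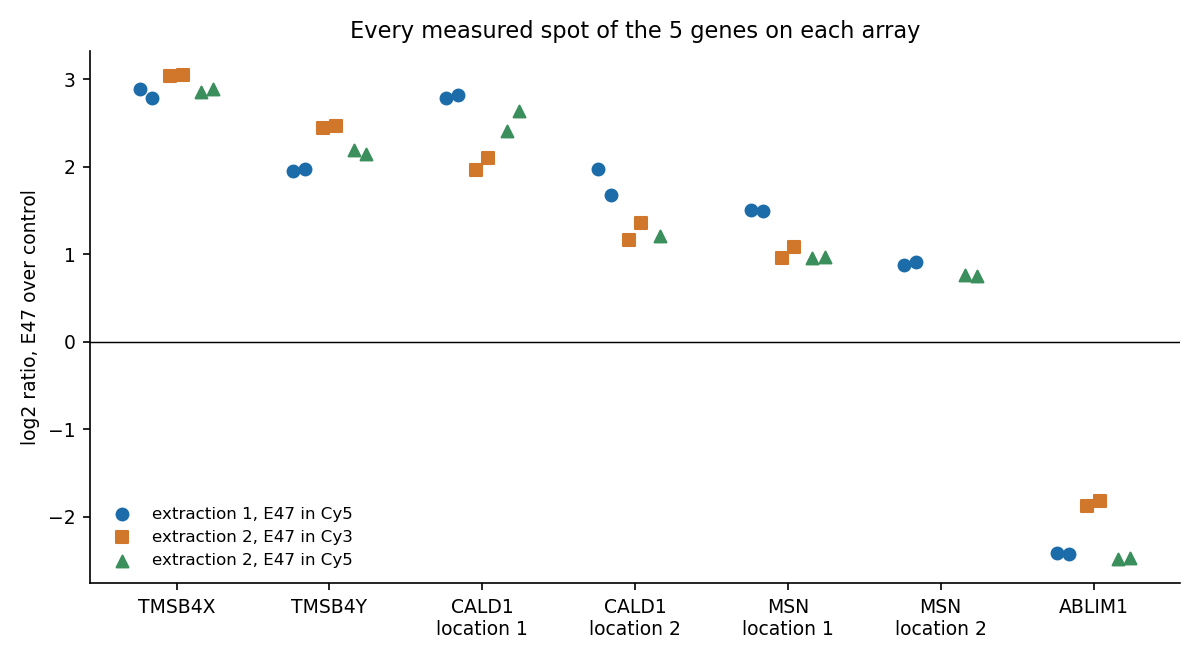
Log2 ratio of E47 over control (vertical axis) of every measured spot of the 5 genes, by gene and location (horizontal axis), with 1 marker shape and colour for each array and no averaging. The TMSB4X spots lie between 2.79 and 3.05, both CALD1 locations and both MSN locations lie above 0 with the second below the first, and the ABLIM1 spots lie between −2.48 and −1.82.

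The dye swap of extraction 2 moved the members in different directions. With E47 in Cy3 the ratio was 0.17 above that in Cy5 for TMSB4X and 0.28 above it for TMSB4Y, so the thymosin ratios were larger in Cy3. It was 0.27 below for CALD1 and 0.63 above for ABLIM1, so both were smaller in size in Cy3, and for MSN the gap was 0.05. The median size of this gap over all named genes was 0.17, and that of ABLIM1 exceeded the gap of 95.9% of them. Of 262 named genes with a mean of at least 2-fold, 158 (60.3%) were smaller in size in Cy3.

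Between extractions the order also differed by gene. Extraction 1 was above extraction 2 by 0.51 for MSN and by 0.48 for CALD1, against a median difference of 0.13 in size over all named genes. The differences were −0.12 for TMSB4X, −0.35 for TMSB4Y and −0.26 for ABLIM1. These set a Cy5 array of extraction 1 against the dye-averaged extraction 2. With E47 in Cy5 on both sides, extraction 1 minus extraction 2 was 0.53 for MSN, 0.35 for CALD1, −0.21 for TMSB4Y, −0.03 for TMSB4X and 0.06 for ABLIM1, against a median size of 0.12 over all named genes. MSN and CALD1 thus kept the higher value in extraction 1 at equal dye, and ABLIM1 changed sign. The MSN differences are those of its first location alone. At its second location the gap was smaller, with means of 0.89 for extraction 1 and 0.76 for extraction 2, both with E47 in Cy5.

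**Figure D2:**
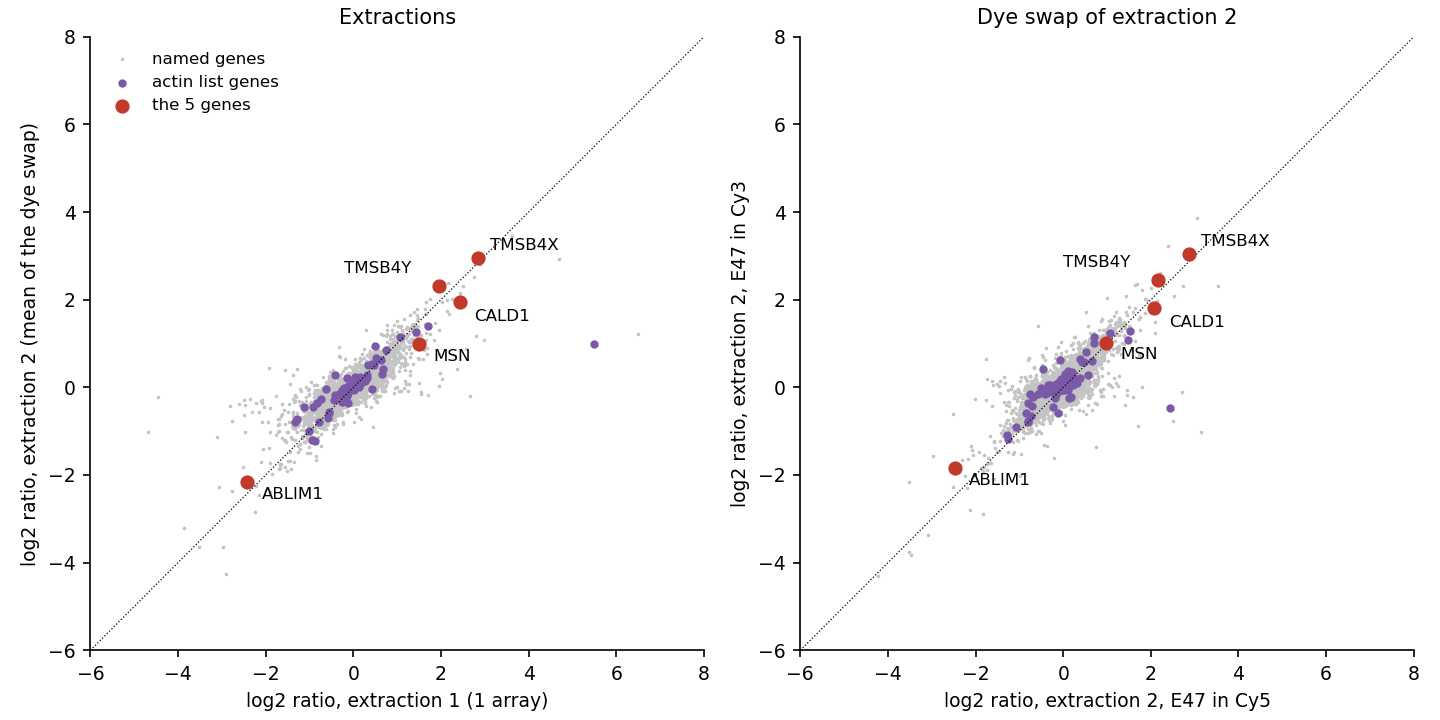
Log2 ratios of extraction 2 against extraction 1 (left) and of the Cy3 against the Cy5 array of extraction 2 (right) for all 5508 named genes (grey), 75 other genes of the actin cytoskeleton (purple) and the 5 genes (red); the dotted line marks equal values. TMSB4X, TMSB4Y, CALD1 and ABLIM1 lie towards the ends of the cloud. MSN lies less far out, at rank 81 from the highest of the named genes by mean. Of the 5 genes MSN is farthest from equal values between extractions, by 0.51, and ABLIM1 in the dye swap, by 0.63. Far off the line lies 1 purple point, PALLD.

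The genes nearest to each member were found by the Euclidean distance of the 3 array values, which says only that ratios were alike on 3 arrays. Nearest to TMSB4X were SPARC, a secreted matrix glycoprotein, at a distance of 0.53, GNG11, a G protein gamma subunit, at 0.75 and ADGRL2, an adhesion G protein-coupled receptor, at 1.07. TMSB4Y was nearest to TIMP1, a metalloproteinase inhibitor, at 0.18, ADGRL2 at 0.23 and STMN1, which encodes the microtubule-destabilising protein stathmin, at 0.49. For CALD1 they were the sodium channel gene SCN9A at 0.18, fibronectin, FN1, at 0.47 and SPRY2, a feedback inhibitor of growth factor signalling, at 0.47. MSN was closest to CHSY1, a chondroitin synthase, at 0.11, the helix-loop-helix inhibitor ID4 at 0.12 and the spindle motor KIF11 at 0.20. For ABLIM1 they were HERPUD1 at 0.30, TFF1, a secreted trefoil peptide, at 0.51 and RGS2, a regulator of G protein signalling, at 0.57.

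Other genes of the actin cytoskeleton, in 5 lists by function without the 5 genes, were tested in the fit across all features. Of 75 tested genes 6 rose (8%), 8 fell (10.7%) and 61 did not pass, with adjusted p-values from limma and a threshold of 0.05. Over all 5508 named genes 5.34% rose, 3.85% fell and 9.19% passed in either direction. The median was −0.04 over the lists and −0.02 over all named genes, so the list median lay near 0. The 5 genes, chosen for their size, lay away from 0. The shares of list genes that passed were above those over all named genes in both directions, which was not tested. The calls depended on the arrays: without the Cy5 array of extraction 2 the counts were 2 higher and 0 lower, against 12 and 9 at an unadjusted p under 0.05, and without its Cy3 array they were 9 higher and 14 lower. With arrays scaled to a common spread 2 rose and 2 fell.

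Monomer binders share with thymosin beta-4 the role of binding single actin subunits. Of 5 tested genes none passed as higher, also at an unadjusted p under 0.05 in limma, and 1 passed as lower (20%). Over all named genes 5.34% passed as higher and 3.85% as lower. PFN2, a profilin that delivers actin subunits to filament ends, fell to −0.56 ± 0.01 (SD, n = 2 extractions; limma adjusted p = 0.0471). It lost its call without the Cy5 array of extraction 2, at 0.164, with scaled arrays, at 0.0666, and with incomplete spots kept, at 0.0604.

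Among 15 actins, tropomyosins and contractile filament genes, partners of caldesmon, 1 rose and 1 fell (6.67% each), with a median of −0.07. The shares over all named genes were 5.34% and 3.85%. TPM4, a tropomyosin of non-muscle cells, rose to 0.80 ± 0.08 (SD, n = 2; limma adjusted p = 0.0298). Its arrays gave 0.74, 1.00 and 0.71, and the call was lost without the Cy5 array of extraction 2 and with scaled arrays, at 0.0717 and 0.066. ACTC1, a cardiac actin whose cDNA can bind other actin transcripts, fell to −1.06 ± 0.37 (limma adjusted p = 0.0481), and lost its call without that array, with median centring and with incomplete spots kept. ACTB, which encodes cytoplasmic beta-actin and was picked here with its value known, did not pass in limma, with a log2 ratio of 0.06 and an adjusted p of 0.635.

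The ERM and membrane skeleton list, which holds the relatives of moesin, had 1 gene that rose (7.14%) and 4 that fell (28.6%) among 14. Its median was −0.13. Over all named genes the shares were 5.34% and 3.85%, and the difference from them was not tested. ADD3, an adducin that caps filaments of the membrane skeleton, rose to 1.35 ± 0.11 (SD, n = 2; limma adjusted p = 0.0198). Its clones differed: 1 gave 0.31, 0.29 and 0.49 on the 3 arrays and the other 1.99, 1.46 and 1.97. MARCKSL1, a membrane-bound actin binder, fell to −1.05 ± 0.24, the spectrin SPTBN1 to −1.00 ± 0.01 at 1 spot, and ANK3, an ankyrin that links spectrin to membrane proteins, to −0.79 ± 0.0043 (SD, n = 2), with limma adjusted p-values of 0.0316, 0.0217 and 0.0281. All 4 lost their calls without the Cy5 array of extraction 2, at 0.0545 to 0.0685, and the 3 lower ones also with scaled arrays, at 0.0511 to 0.0727. The ERM paralogs of MSN, named after their values were seen, were on either side of 0: RDX (radixin) had 0.47, 0.64 and 0.39 on the 3 arrays with a limma adjusted p of 0.0577, and EZR (ezrin) had −0.13, −0.59 and −0.13 with 0.200. Human clones of this family may bind each other's dog transcripts, which was not tested.

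LIM and focal adhesion actin binders, the class of ABLIM1, showed 1 gene that fell (5.88%) and 0 that rose in limma among 17. Over all named genes 3.85% fell and 5.34% rose. At an unadjusted p under 0.05 in limma 1 was above 0 and 3 below, and the list median was −0.14. TES, a LIM-domain protein of focal adhesions, fell to −0.64 ± 0.09 (SD, n = 2; limma adjusted p = 0.0423), and lost its call without the Cy5 array of extraction 2, at 0.104, with scaled arrays, at 0.0731, and with incomplete spots kept, at 0.0555. The list ran from −0.68 to 0.30. ABLIM1 lay below this range, but it was chosen by its ratio and the list by function, so the gap is no result.

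Nucleators, bundlers, cappers and severing proteins included 4 that rose (16.7%) and 1 that fell (4.17%) among 24, with a median of 0.13. Over all named genes the shares were 5.34% and 3.85%. ANLN, anillin of the contractile ring, rose to 1.56 ± 0.21 (SD, n = 2; limma adjusted p = 0.0201) and DIAPH3, a formin, to 1.11 ± 0.05 (0.0202). CORO1C, a coronin, was at 0.64 ± 0.01 (0.0386). ARPC1B, a subunit of the Arp2/3 nucleator, fell to −1.07 ± 0.17 (0.0255), and was at −0.74 with incomplete spots kept. The other Arp2/3 subunits of the list, named after their values were seen, did not share this fall. ARPC3 passed as higher at 0.59 ± 0.09 (limma adjusted p = 0.0481). ARPC5, ARPC2 and ARPC1A did not pass, at 0.72, 0.18 and −0.04. CORO1C and ARPC1B lost their calls without the Cy5 array of extraction 2, with scaled arrays and with incomplete spots kept, and DIAPH3 with scaled arrays, at 0.0544. PALLD (palladin), chosen after its value was seen, had the highest mean of the list at 3.24 with 5.49, −0.46 and 2.45 on the 3 arrays, and did not pass.

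**Figure D3:**
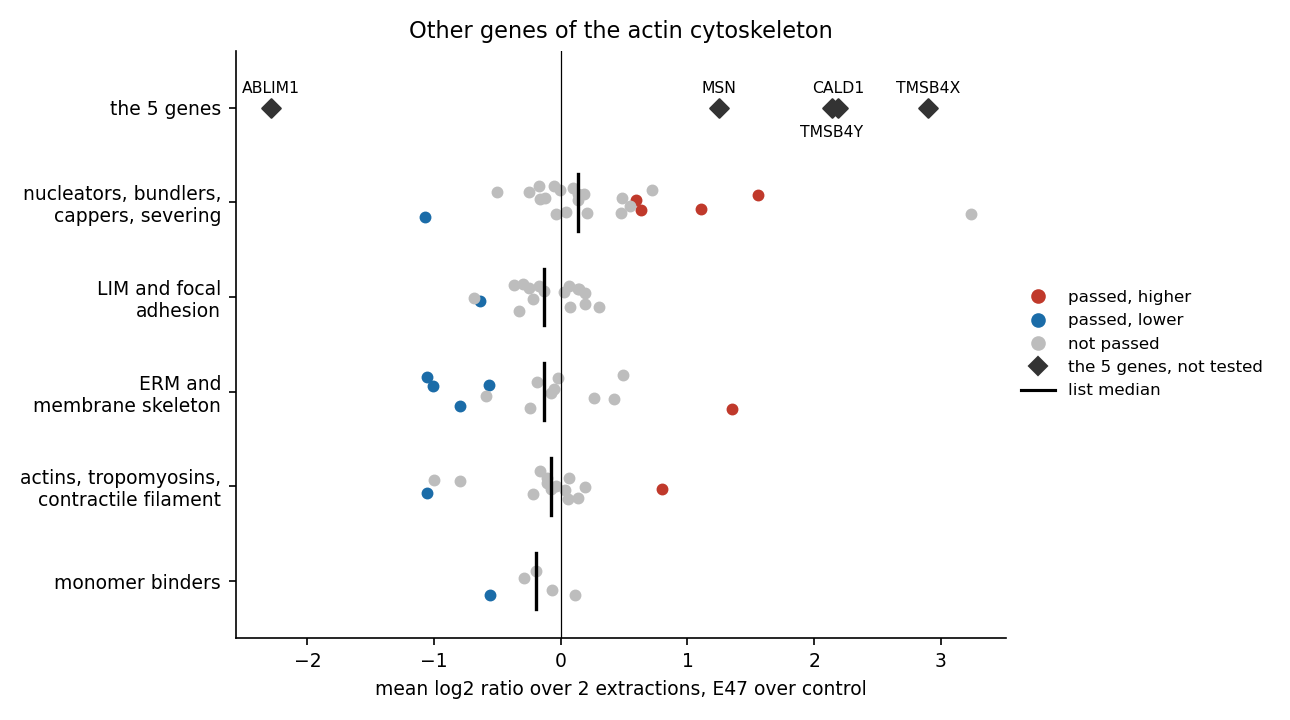
Mean log2 ratio over 2 extractions (horizontal axis) of each gene in the 5 actin lists (rows), coloured by whether it passed the limma test, with the list median as a black bar and the 5 genes as diamonds in the top row. List medians lie between −0.19 and 0.13, and the grey point at 3.24 is PALLD, whose arrays did not share a sign.

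Markers of other cell types were tested beside these values. Of 4 endothelial markers none passed in limma, with 1 above 0 and 0 below at an unadjusted p under 0.05 and values from −0.17 to 0.38. Of 2 blood markers CD14 was at −0.04 and PTPRC rose to 1.03 ± 0.17 (SD, n = 2, limma adjusted p = 0.0264). PTPRC rests on 1 spot with a value on all 3 arrays. Its part in the values of the 5 genes was not tested.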

How the data were processed

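The authors deposited 1 column of log ratios per array, read here as log2. The sources used here do not give how background was corrected and arrays normalized, the base of the log or the sign convention. The largest size, 7.80, exceeds 4.82, the log10 of a 16-bit range, so the base is not 10. Column medians were −0.0051, 0.0027 and 7.67e-04. Signal intensities were not used, so dim spots could not be filtered. Clone names come from GEO's platform annotation, and 5027 of 5508 tested symbols (91.3%) are in the dog table of UU_Cfam_GSD_1.0, consulted for symbols alone. The 23275 spots with a value on 3 arrays were used and averaged per gene; spots with no symbol or several were 8500 further features. The dye swap was averaged and the ratio tested against 0 in limma 3.58.1 (lmFit, then eBayes; R 4.3.3) over 14008 features with 1 residual degree of freedom and Benjamini-Hochberg adjustment. Control RNA was on every array; whether it was 1 pool is not stated, and if so the test leaves out the spread between control samples. The code was tested on simulated data.

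The members, lists and tests were chosen with earlier results of these data known. The result of 1 list is left out. The text names every member, up to 4 genes per list that passed, by size, or else 2, and the 3 nearest genes of each member. Further list genes are named where the text says that their values were seen first. Alternatives changed the arrays used, scaling, centring, spot filter, summary over spots, eBayes and the threshold. Clone, protein and promoter sequences were not used here, so the planned search for E-boxes was not run.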

Additional observations from a re-analysis of the deposited data

How the results depend on the processing

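The log2 ratio of each of the 5 genes kept its sign and moved by less than the SD between its extractions under each alternative run on it that kept both extractions. By extraction alone it ran from 2.84 to 2.96 for TMSB4X, 1.97 to 2.31 for TMSB4Y, 1.95 to 2.43 for CALD1, 0.99 to 1.50 for MSN and −2.42 to −2.16 for ABLIM1; these have no test. The widest moves by summary were for CALD1, 2.48 as the median over spots and 2.01 with locations weighted equally. Counts of calls moved more. Without the Cy5 array of extraction 2, limma called 74 named genes higher and 35 lower, against 294 and 212, and 2 and 0 actin list genes, against 6 and 8, where 12 and 9 had an unadjusted p under 0.05. Without its Cy3 array the counts were 448 and 471, and 9 and 14. With scaled arrays they were 106 and 88, and 2 and 2. With incomplete spots kept, 4 and 3 actin genes passed. At an adjusted p under 0.10, 653 named genes were higher and 591 lower, and 11 actin genes were higher and 11 lower. Of the 12 list genes named by size, 10, 0, 9 and 5 lost their calls under the first 4 of these settings in that order. The cause was not tested. No paired analysis was possible because there is 1 group of arrays: each ratio already sets E47 against the control within an array, so no further block can be fitted. Signal over background is unknown.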
